A study of Homo sapiens with 3 samples.

Results

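The acyl-CoA dehydrogenases are a family of flavoenzymes of fatty acid and amino acid breakdown, and their transcripts were examined in LNCaP cells, an established androgen-responsive line from a human prostate carcinoma metastasis. The family was listed by name as 10 genes, ACADVL, ACADL, ACADM, ACADS, IVD, ACADSB, ACAD8, ACAD9, ACAD10 and ACAD11, among 18417 genes that the platform annotation named. It was picked out because ACADL had been seen to be lower on the siRNA arrays, so the ACADL values describe that choice and carry no test. Of the 10 genes, 9 had a value, each from 1 probe set that named that gene alone, and ACAD11 was not analysed here. Cells were transfected for 72 hours with a negative control siRNA (1 array; the series text calls it siGl2) or with siRNAs titled siSE1 and siSE2 (1 array each), both directed against the SLC45A3-ELK4 chimeric transcript. The transfection field of the siSE2 array names siSE1, and its title was followed; if that field is right, both arrays carry siSE1. Whether the cultures were separate is not stated in the labels. The p-values and errors cover only the spread between the siRNA arrays, moderated with that of all genes tested, and that spread may be technical. The spread of the control was not measured, since it has 1 array.

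In mitochondria these enzymes take the first oxidative step on an acyl-CoA, placing a double bond next to the thioester and passing the electrons through FAD to electron transfer flavoprotein and from there to the respiratory chain. Members differ in the acyl chain they prefer: ACADVL, ACADL, ACADM and ACADS act on very long, long, medium and short straight chains, whereas IVD, ACADSB and ACAD8 act on branched products of leucine, isoleucine and valine. ACAD9 also serves as an assembly factor of respiratory complex I. ACAD10 and ACAD11 are less well characterised.

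Of the whole arrays, 12892 genes had a mean log2 value of at least 5.12, the 30th percentile, and were tested. All 9 measured members were among them. SLC45A3 and ELK4, the parent genes of the chimera, differed from the control by -0.46 ± 0.15 and -0.18 ± 0.16 (log2, SE, 2 arrays against 1; limma, adjusted p = 0.154 and 0.582), and their probe sets do not resolve the chimeric junction. All 8 luminal prostate markers with a value lay above the filter level, among them KLK3 at 10.04 with the control siRNA, 9.59 with siSE1 and 9.71 with siSE2. Among markers of other cell types, 1 of 3 basal, 4 of 6 fibroblast, 3 of 5 blood cell and 2 of 4 hepatocyte markers with a value lay above it. KRT5, PTPRC, CD3E, DCN and ALB lay below the filter level, and APOA1, KRT14, COL1A1 and CD68 above it, the last 3 at 5.90, 6.94 and 7.30 with the control siRNA. The mean log2 value over each list ran, in the order control, siSE1 and siSE2, through 5.22, 5.39 and 5.57 (basal), 4.75, 4.89 and 4.84 (fibroblast), 4.83, 5.25 and 5.12 (blood cell) and 5.54, 5.30 and 5.12 (hepatocyte), against 9.67, 9.65 and 9.62 for the luminal list. TTR, a hepatocyte marker, fell (7.12 with the control siRNA, 6.34 with siSE1 and 6.06 with siSE2; log2 -0.92 ± 0.16, SE; limma, adjusted p = 0.038, and 0.0512 to 0.199 in the 3 settings that lost the call). LYZ, a blood cell marker, went from 4.41 with the control siRNA to 6.09 with siSE1 and 5.11 with siSE2, and with both the control siRNA and siSE2 it lay under the filter level, so that it entered the fit through its siSE1 value. The part of these markers in the results was not tested.

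ACADL, the long-chain acyl-CoA dehydrogenase gene, was lower on both siRNA arrays by more than any other member. It measured 6.67 with the control siRNA, 5.66 with siSE1 and 5.38 with siSE2 (log2). Both siRNA arrays therefore lay well below the control, and all 3 values stayed above the filter level. The siSE1 and siSE2 values were below the median over all probe sets, which was 5.84 on each of these arrays. The differences from the control were -1.01 with siSE1 and -1.29 with siSE2, with a mean of -1.15 ± 0.20 (SD between the siRNA arrays, n = 2, against 1 control array), or 2.22-fold lower. A total of 10 of the 12892 genes tested had a lower mean difference. Because the gene was chosen for this difference, neither its rank nor its size says anything further about the family. Its mean difference ran from -1.20 to -1.14 under the other normalizations tried.

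**Figure D1:**
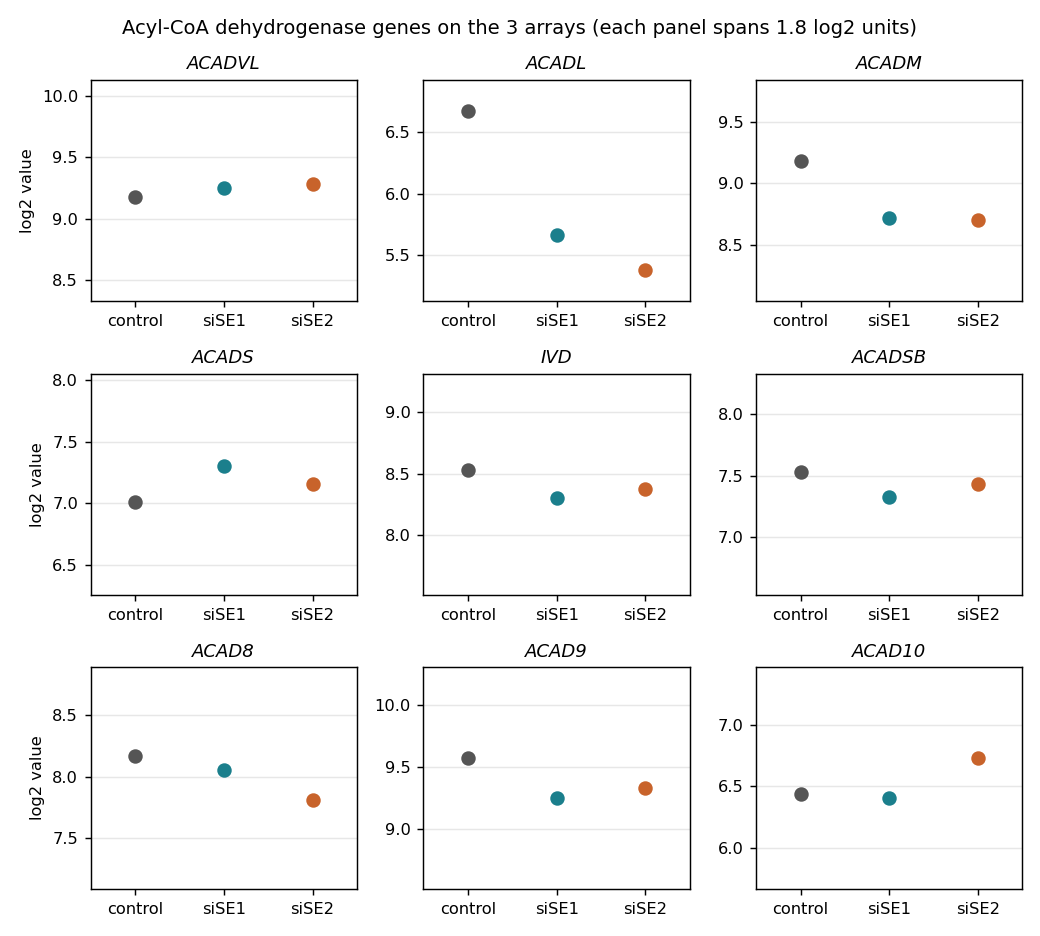
Log2 value of each measured acyl-CoA dehydrogenase gene (panels) on the control, siSE1 and siSE2 arrays, 1 point per array; all panels have the same span, but levels are not comparable between genes. ACADL drops from 6.67 to 5.66 and 5.38 and ACADM from 9.18 to 8.72 and 8.70, while the other 7 genes stay within 0.36 of their control value.

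The sequences upstream of ACADL and ACADM are shown because these were the members furthest below the control. Both are the 250 bases before the RefSeq start site (build GRCh38.p14), 5′ to 3′ on the gene's strand, from chr2:210225448-210225697 (minus strand) for ACADL and chr1:75724459-75724708 (plus strand) for ACADM. Capitals mark GGGCGG, the GC box, on either strand.
ACADL: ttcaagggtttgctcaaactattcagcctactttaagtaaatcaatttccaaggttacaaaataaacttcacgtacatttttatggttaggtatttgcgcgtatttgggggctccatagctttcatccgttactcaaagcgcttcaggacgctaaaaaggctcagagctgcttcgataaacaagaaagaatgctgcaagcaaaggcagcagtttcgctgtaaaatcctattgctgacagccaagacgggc
ACADM: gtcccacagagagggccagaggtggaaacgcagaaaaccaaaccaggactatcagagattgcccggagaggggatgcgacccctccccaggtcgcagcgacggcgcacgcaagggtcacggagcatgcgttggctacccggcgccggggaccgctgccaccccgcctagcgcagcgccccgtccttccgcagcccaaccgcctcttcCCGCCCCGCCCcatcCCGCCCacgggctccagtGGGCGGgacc
The ACADL stretch has no capitals, and the ACADM stretch has 4 matches, of which the first and second overlap. The ACADL stretch was 42.0% G and C with 9 CpG dinucleotides, against a median of 58.0% and 11 over 35116 RefSeq promoters. The ACADM stretch was 70.8% G and C with 25 CpG dinucleotides. Across the 10 promoters that the table lists for 9 of the family genes (ACADVL has 2, ACAD11 had no entry), ACADL had the lowest G and C content, and the rest ran from 49.6% to 74.4%.

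The same 250-base windows were searched on both strands for 4 short motifs. CCGGAAG, an ETS-type site of the kind bound by ELK4, was in 0 of the 10 family promoters and in 8.52% of all promoters. AGGTCA, the nuclear receptor half-site, was in the ACAD10 promoter alone, against 12.1% of all promoters. GGGCGG was in 8 of the 10, against 42.6%, and was missing from the ACADL window and from 1 of the ACADVL windows. CCAAT was in the ACAD10 and IVD promoters, against 32% of all. The CCAAT and GGGCGG matches of ACAD10 overlap, and the counts describe letters in these windows only.

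The other enzymes of straight chains were split. ACADM, the medium-chain dehydrogenase gene, measured 9.18 with the control siRNA, 8.72 with siSE1 and 8.70 with siSE2. The siRNA arrays lay close together and below the control. Its difference of -0.47 ± 0.14 (SE, 2 arrays against 1) did not pass (limma, adjusted p = 0.134 over all genes tested), with an unadjusted 95% interval from -0.79 to -0.15. The difference corresponds to 72.2% of the control level on a linear scale.

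ACADVL, the very-long-chain enzyme of the inner mitochondrial membrane, measured 9.18 with the control siRNA, 9.25 with siSE1 and 9.28 with siSE2. Its siRNA values lay just above the control: the difference was 0.09 ± 0.14 (SE; limma, adjusted p = 0.782), with an interval from -0.23 to 0.41. ACADS, the short-chain enzyme gene, measured 7.01 with the control siRNA, 7.30 with siSE1 and 7.16 with siSE2, so that both siRNA arrays lay above the control. The difference of 0.22 ± 0.15 did not pass (SE; limma, adjusted p = 0.472; interval from -0.11 to 0.55).

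The genes of branched-chain substrates all read lower on both siRNA arrays, by small amounts that did not pass. IVD, which acts on isovaleryl-CoA from leucine, measured 8.53 with the control siRNA, 8.30 with siSE1 and 8.38 with siSE2. ACADSB, the enzyme of the isoleucine branch, read 7.53, 7.33 and 7.43 in the same order. ACAD8, the isobutyryl-CoA dehydrogenase of valine breakdown, read 8.17, 8.06 and 7.81. Neither siRNA was the lower one for all 3 genes: siSE1 was lower for IVD and ACADSB, and siSE2 for ACAD8. Their differences were -0.18 ± 0.14, -0.15 ± 0.14 and -0.24 ± 0.16 (SE; limma, adjusted p = 0.535, 0.619 and 0.462). The intervals reached down to -0.51, -0.47 and -0.59, so a fall of that size is not excluded for any of them.

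ACAD9, the complex I assembly factor, measured 9.57 with the control siRNA, 9.25 with siSE1 and 9.33 with siSE2. Both siRNA arrays were lower, and the difference of -0.28 ± 0.14 did not pass (SE; limma, adjusted p = 0.346; interval from -0.60 to 0.04). ACAD10 measured 6.44 with the control siRNA, 6.40 with siSE1 and 6.73 with siSE2. It alone lay on opposite sides of the control with the siRNAs, and its mean difference was 0.13 ± 0.17 (SE; limma, adjusted p = 0.738).

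**Figure D2:**
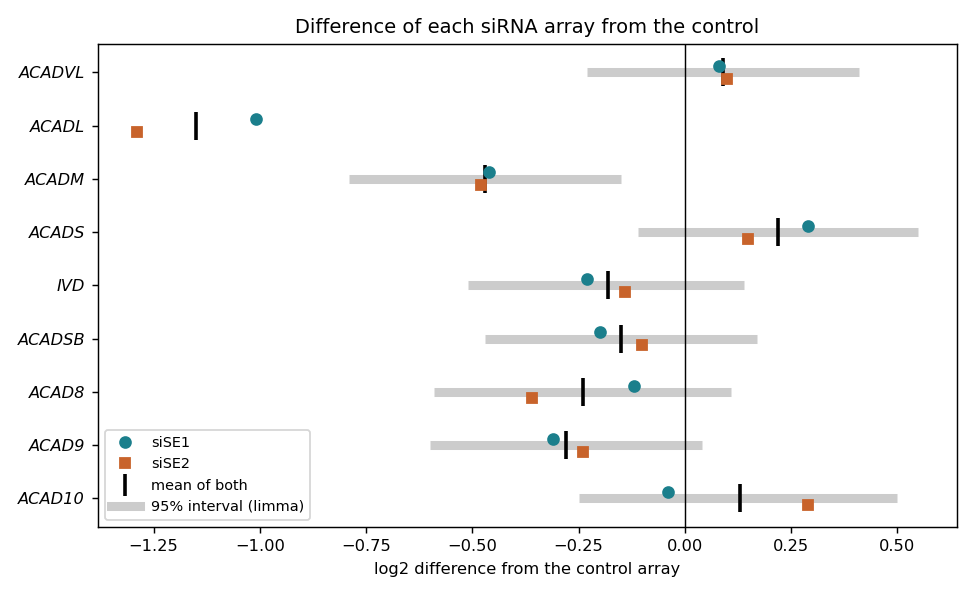
Log2 difference of each siRNA array from the control array for the 9 measured acyl-CoA dehydrogenase genes; circles are siSE1, squares siSE2, vertical ticks their mean, and grey bars the unadjusted 95% interval of the limma fit, drawn for no ACADL value because that gene was chosen on this difference. The ACADM interval, from -0.79 to -0.15, is the one drawn that does not reach 0; the other 7 include it.

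Counted over the family, 6 of the 9 measured genes were lower on both siRNA arrays, 2 were higher on both (ACADS and ACADVL) and 1 was mixed (ACAD10). Without ACADL, which was picked for being lower, 5 of 8 were lower on both. Over all genes tested, 41.7% were lower and 36.4% higher on both arrays, and both siRNAs are set against the same control array. At least a 1.5-fold difference in the same direction on both arrays is a size rule with no test. It was met by 0 of the 8 members other than ACADL, where 1.53% of all genes tested were that much lower and 0.582% higher. ACADL itself met the rule, but it was picked for being lower, so it is not set against these shares. Of the 8 members other than ACADL, 0 passed the test (limma, adjusted p under 0.05) and 1, ACADM, had an unadjusted p under 0.05 (0.00823). Over all genes tested 0.962% passed, 0.248% higher and 0.714% lower. Against that background a count of 0 among 8 genes is no result about the members. The median difference of these 8 genes was -0.17, with -0.16 for siSE1 and -0.12 for siSE2, beside -0.02 for all genes tested. The fit rests on 1 residual degree of freedom, the difference between the siRNA arrays, and the single control array is taken to be as variable as these. Each variance is moderated towards a value shared by all genes tested, with 8.46 prior degrees of freedom. The SEs and p-values therefore reflect mostly that shared variance and not the spread of each gene. ACADM, for example, had an SD of 0.02 between the siRNA arrays and an SE of 0.14.

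**Figure D3:**
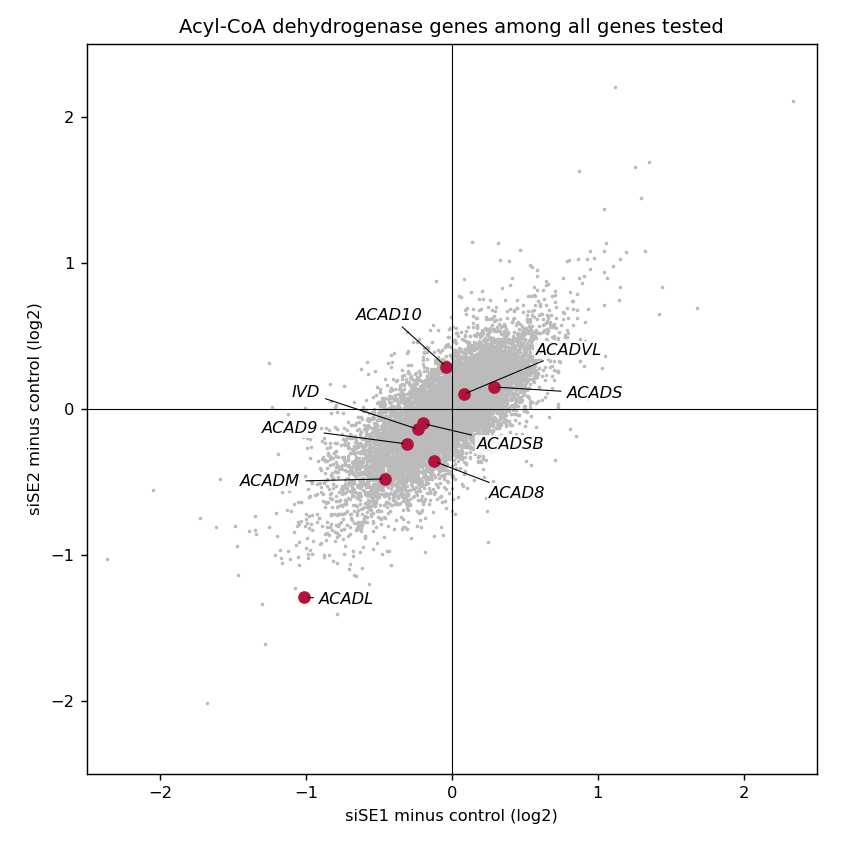
Log2 difference from the control for siSE1 (horizontal) and siSE2 (vertical); grey dots are the 12892 genes tested and red points the 9 acyl-CoA dehydrogenase genes. Both axes subtract the same control array, which by itself stretches the cloud along the diagonal; ACADL lies at -1.01 and -1.29 and the other 8 members lie within the cloud.

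The siRNAs differed little from each other for most members. The siSE1 minus siSE2 difference was 0.02 for ACADM, -0.02 for ACADVL, and -0.08 for ACAD9 and IVD. It was largest for ACAD10 (-0.33), ACADL (0.28) and ACAD8 (0.25). The SD of the same difference over all genes tested was 0.20, so these 3 genes lay somewhat outside 1 SD. With 1 array per siRNA this comparison has no test.

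The rest of the pathway was followed in 10 lists of 94 genes, of which 85 had a value and 76 were tested. Of these 76 genes 1 passed as lower and 0 as higher (limma, adjusted p under 0.05), beside the 0.962% of all genes that passed in either direction. An unadjusted p under 0.05 was seen for 11 (14.5%, beside 17.8% of all genes tested). On both siRNA arrays 37 of the 76 were lower (48.7%, beside 41.7% of all genes tested) and 23 higher (30.3%, beside 36.4%). The median difference of the 76 genes was -0.06.

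The gene that passed was SLC25A32, of the list of FAD supply, which encodes a mitochondrial inner membrane carrier of folate and FAD. It measured 9.89 with the control siRNA, 8.89 with siSE1 and 9.14 with siSE2, with a mean difference of -0.88 ± 0.16 (SE; limma, adjusted p = 0.0398). Both siRNA arrays lay far below the control. The call was lost with no filter on dim genes (adjusted p = 0.13), when filtering at the 50th percentile (0.0526) and with quantile normalization of named probe sets alone (0.197; limma for each). SLC52A2, a riboflavin transporter, and RFK, the kinase that makes FMN from riboflavin, stood on the other side of the control at 0.41 ± 0.16 and 0.23 ± 0.15 without passing. Of the 5 tested genes of this list 1 passed as lower and 4 did not pass, with a median of 0.06.

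The electron acceptors of the dehydrogenases lay close to the control. ETFA, ETFB and ETFDH, the flavoprotein subunits and the oxidoreductase that hands electrons to ubiquinone, differed by -0.20 ± 0.14, 0.06 ± 0.14 and 0.17 ± 0.14 (SE), and none of the 4 tested genes of this list passed (lowest limma adjusted p = 0.5; median 0.05). Among related flavoenzymes, ACOX2, a peroxisomal oxidase of branched chains and bile acid intermediates, measured 5.79 with the control siRNA, 6.39 with siSE1 and 6.22 with siSE2, with a mean difference of 0.51 ± 0.15 that did not pass (SE; limma, adjusted p = 0.126). GCDH, the glutaryl-CoA dehydrogenase of lysine breakdown, differed by 0.08 ± 0.14. None of the 3 tested genes of that list passed, and their median was 0.08.

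Upstream of the dehydrogenases, 7 of the 11 tested genes of fatty acid activation and the carnitine shuttle were lower on both siRNA arrays and 3 higher. Over all genes tested the shares were 41.7% and 36.4%, and nothing particular to this list is read from so few genes. None passed (median -0.17; lowest limma adjusted p = 0.149). CROT, the peroxisomal carnitine octanoyltransferase gene, measured 10.22 with the control siRNA, 9.82 with siSE1 and 9.70 with siSE2, with a mean difference of -0.46 ± 0.14 (SE). SLC22A5, the plasma membrane carnitine transporter, differed by -0.28 ± 0.15, and SLC25A20, the mitochondrial carnitine-acylcarnitine carrier, by 0.26 ± 0.14.

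Downstream, the later steps of the mitochondrial spiral lay close to the control. HADHA and HADHB, the subunits of the trifunctional protein, differed by -0.18 ± 0.14 and -0.08 ± 0.14 (SE), and ACAT1, a thiolase, by 0.05 ± 0.14. None of the 6 tested genes of that list passed (median 0.00; lowest limma adjusted p = 0.549). Among the 5 auxiliary enzymes of unsaturated chains, ECI2, an enoyl-CoA isomerase, differed by 0.35 ± 0.17, DECR1 by -0.17 ± 0.14 and DECR2 by -0.15 ± 0.14, and none passed (median -0.15; lowest adjusted p = 0.302). In peroxisomal beta-oxidation, ABCD3, an acyl-CoA importer, differed by -0.43 ± 0.15, PEX5, the import receptor, by 0.21 ± 0.16 and ACAA1, a thiolase, by 0.20 ± 0.14, and none of the 4 tested genes passed (median 0.07; lowest adjusted p = 0.179).

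**Figure D4:**
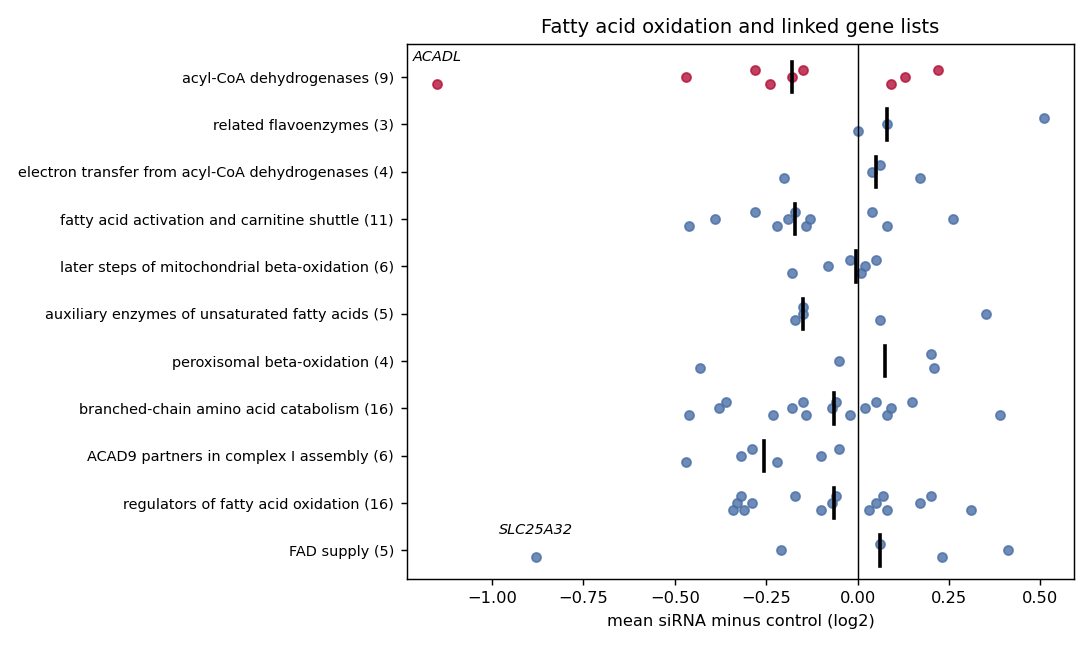
Mean log2 difference of the siRNA arrays from the control array for each tested gene (points) of the acyl-CoA dehydrogenase family (red) and of 10 linked lists (blue), with the number of genes in parentheses and the list median as a black bar. ACADL at -1.15 and SLC25A32 at -0.88 are the genes furthest below the control, and the list medians run from -0.25 to 0.08.

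The branched-chain amino acid pathway, to which IVD, ACADSB and ACAD8 belong, held genes on both sides. HIBADH, of valine breakdown, differed by -0.48 with siSE1 and -0.44 with siSE2, with a mean of -0.46 ± 0.14 (SE; limma, adjusted p = 0.14). Within the branched-chain ketoacid dehydrogenase, BCKDHA, the E1 alpha subunit, differed by 0.39 ± 0.15 and DBT, the E2 core, by -0.38 ± 0.14, without passing. Of the 16 tested genes 7 were lower on both arrays, 2 higher and 7 mixed, beside 41.7% lower and 36.4% higher over all genes tested. None passed, and the median was -0.07.

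The partners of ACAD9 in complex I assembly read lower with it. Of 6 tested genes 5 were lower on both siRNA arrays and 1 was mixed, with a median of -0.25, and none passed (lowest limma adjusted p = 0.144). TMEM186 measured 6.39 with the control siRNA, 5.86 with siSE1 and 5.99 with siSE2, with a mean difference of -0.47 ± 0.15 (SE). NDUFAF1 and COA1 differed by -0.32 ± 0.14 and -0.29 ± 0.14. With 6 genes, and 41.7% of all genes lower on both arrays, nothing particular to this list is read from the count.

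Regulators of fatty acid oxidation were evenly spread, with 8 of 16 lower and 7 higher on both arrays and a median of -0.06. Over all genes tested 41.7% were lower and 36.4% higher on both. None of the 16 passed (lowest limma adjusted p = 0.273). UCP3 and UCP2, mitochondrial carriers of the uncoupling protein family, differed by -0.34 ± 0.15 and 0.31 ± 0.14 (SE), and ACACB, the acetyl-CoA carboxylase whose malonyl-CoA restrains the carnitine shuttle, by -0.31 ± 0.14.

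The genes that flank ACADL on chromosome 2 did not pass where they were tested. KANSL1L, the nearest measured gene on 1 side, measured 6.45 with the control siRNA, 6.25 with siSE1 and 6.07 with siSE2, with a mean difference of -0.29 ± 0.15 (SE; limma, adjusted p = 0.349). RPE and UNC80, further out on that side, differed by -0.07 ± 0.14 and 0.20 ± 0.17 (SE; limma, adjusted p = 0.825 and 0.588). MYL1, CPS1 and CPS1-IT1 on the other side lay below the filter level and were not tested, with mean differences of 0.07, 0.33 and 0.02.

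Over the 3 arrays, the genes whose pair of differences lay nearest to that of ACADL were GINS4, GCG, IFT46, CEP55 and MYBL1, at Euclidean distances from 0.0956 to 0.277 in log2 units. GINS4, a subunit of the replicative helicase, differed by -1.08 with siSE1 and -1.22 with siSE2. GCG, which encodes proglucagon, differed by -1.05 and -1.07. It measured 6.04 with the control siRNA, 4.99 with siSE1 and 4.97 with siSE2. Both siRNA values of GCG lay under the filter level of 5.12, so that it entered the fit through its control value. IFT46, of intraflagellar transport, differed by -0.78 and -1.40. CEP55, a midbody protein of cytokinesis, differed by -0.99 and -1.02, and MYBL1, a MYB-family transcription factor, by -1.16 and -1.06. A likeness over 2 differences that share a control array is a description.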

How the data were processed

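Gene expression was measured on 3 Affymetrix arrays. The authors deposited 33297 probe set values per array, for which the submitters' processing notes name Affymetrix Expression Console without version or algorithm; the scale was taken as log2 from the range of the deposited values (1.43 to 13.87). Neither background correction nor genome build is stated in the sources used here. Platform annotation named 1 gene for 19460 probe sets, several for 1754 and none for 12083; 19429 matched RefSeq GRCh38.p14, used for names, gene order and promoters. Probe sets of a gene were averaged (18417 genes), and 5525 genes with a mean below the 30th percentile were left out. The siRNA arrays (n = 2) were compared with the control (n = 1) by limma 3.58.1 in R 4.3.3 (lmFit, eBayes, two-sided), with Benjamini-Hochberg adjustment over 12892 genes and a threshold of 0.05. SE and 95% intervals are moderated and unadjusted. Precision is limited by the number of arrays.

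The members and lists were chosen with earlier results of these data known. Named genes were every member, up to 3 genes per list with the largest smaller change in the same direction on both arrays, list genes that passed, the 3 measured neighbours on each side of ACADL, and the 5 nearest patterns. KLK3, KRT5, DCN, PTPRC, CD3E and ALB were named in addition, after their values were seen. For the marker lists the rule was not followed throughout: KRT8, KRT18, COL1A2, COL3A1 and CD14 met it and were left out. Alternatives were 3 normalizations, other filters, the highest probe set, other variance priors and leaving out each siRNA array; quantile normalization of named probe sets alone was added after seeing the data. A planned comparison of protein sequences was not made because no protein table was used here.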

Additional observations from a re-analysis of the deposited data

How the results depend on the processing

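The ACADL difference, -1.15, was -1.20 to -1.14 under the other normalizations, and -1.29 or -1.01 with 1 siRNA array left out, which are the single-array differences. ACADL and its mean of 5.90 fell outside the filter at the 50th percentile. None of the other 8 members passed under any alternative (limma, lowest adjusted p = 0.116, for ACADM), and the only change of sign among them was ACAD10, at -0.04 without siSE2 and 0.29 without siSE1. The counts of all genes passing, 32 higher and 92 lower, were 63 higher with quantile normalization, 21 higher with equal array medians, 52 higher with a variance trend, 1 higher and 0 lower with no filter, 15 higher and 20 lower when filtered at the 50th percentile, and 0 higher and 0 lower with quantile normalization of named probe sets alone. The 1 pathway list gene that passed, SLC25A32, did not pass under the last 3 of these (0 genes), nor did the marker TTR. With 1 siRNA array left out, genes past 1.5-fold were 155 to 187 higher and 364 to 551 lower, beside 75 and 197 on both arrays; the limma counts have no value there, since no residual degree of freedom is left. No paired analysis was possible because the control group has 1 array. The causes of these shifts were not tested.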
